A study of Mus musculus with 62 samples.

Results

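*Ccnd3* encodes cyclin D3, and its transcripts were followed in the mouse heart and in C2C12 myoblasts. The members were all transcripts in the table of counts that GENCODE M21 assigns to *Ccnd3* by identifier, which gave 6 of 23877 transcripts. The annotation lists 21 *Ccnd3* transcripts in all. The gene was chosen by its measured ratio of Ribo-seq to RNA-seq reads in *Rpl3l*-/- against *Rpl3l*+/+ hearts, so every value of that contrast is given as a description without a test. WT heart libraries entered that choice, so the values of *Ccnd3* in WT heart against C2C12 cells are a description too. The contrasts among C2C12 cells were not used for the choice and were tested. Earlier results of these data were known when the gene and these tests were chosen.

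D-type cyclins bind the kinases CDK4 and CDK6 in response to mitogens, and the active kinase phosphorylates the retinoblastoma family of pocket proteins, which releases E2F factors to drive genes of DNA replication. The level of a D-type cyclin is set by transcription, translation and rapid degradation. Cyclin D3 is the D-type cyclin best known in lymphocytes and in differentiating skeletal muscle, in which it accumulates as myoblasts leave the cell cycle. The C-terminal tail of D-type cyclins carries a conserved threonine whose phosphorylation directs the protein to degradation.

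RNA-seq measured mRNA abundance, and Ribo-seq the stretches of mRNA covered by ribosomes during translation, which nuclease leaves intact. Hearts came from 4 *Rpl3l*+/+ (WT) and 4 *Rpl3l*-/- (KO) male mice at 10 weeks of age. KO mice carried a CRISPR-Cas9 deletion made in C57BL/6J zygotes that removes RPL3L, a ribosomal protein of heart and skeletal muscle, in every cell of the body. C2C12 is a mouse myoblast line. Proliferating C2C12 cells carried a retroviral vector with the cDNA of RPL3L (RPL3L OE) or of RPL3, its widely expressed paralog (RPL3 OE), and Control cells carried the vector alone. All 3 groups had been selected with puromycin, and each had 3 libraries per assay. The study describes the C2C12 samples of its Ribo-seq groups as independent in the biological sense, and the labels do not say whether they came from separate infections. TE is the ratio of Ribo-seq to RNA-seq counts. CPM scales a count by the total of its library.

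*Rpl3l* itself was lower in KO heart, with 29.8 ± 5.35 CPM in RNA-seq (SD, n = 4) against 458 ± 63.8 in WT heart (n = 4). Its Ribo-seq level was 10.7 ± 3.18 CPM in KO and 275 ± 10.7 CPM in WT heart. RPL3L OE cells had 1996 to 2053 CPM of *Rpl3l* in RNA-seq, and the other C2C12 groups at most 0.82. Total counts per library were 3594696 to 22425296 in heart RNA-seq, 1606700 to 3192090 in heart Ribo-seq, 7647102 to 29746110 in C2C12 RNA-seq and 3167026 to 6093268 in C2C12 Ribo-seq. A read is counted once for each transcript to which it was assigned. The 6 cardiomyocyte markers in the table, of 13 listed, summed to at least 43956 CPM in each heart RNA-seq library and at most 298 CPM in each C2C12 library. The 5 myoblast markers in the table, of 7 listed, did not single out the cells, since they summed to 1718 to 1992 CPM in heart RNA-seq and 433 to 751 CPM in C2C12 cells. Most of the heart sum was *Des*, the intermediate filament of all striated muscle, at 1569 to 1824 CPM. *Myod1*, the myoblast determination factor, was at 0 counts in heart RNA-seq and at 42.8 to 84.6 CPM in C2C12 cells.

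Of the 6 transcripts, 5 share 1 coding sequence and are called full-length here, and the other holds only its end. The most abundant, *Ccnd3*-205 (ENSMUST00000182209.7), lies on the plus strand of chromosome 17 from 47593470 to 47599689 (GRCm38), with 5 exons and 292 codons. *Ccnd3*-201, *Ccnd3*-202, *Ccnd3*-215 and *Ccnd3*-218 start far upstream, between 47505051 and 47505149, have 7 exons each and use the same coding exons from 47593655 to 47598776. *Ccnd3*-208 (ENSMUST00000182539.7, from 47596068 to 47599094) has 4 exons, starts inside an intron of the longer forms, and is annotated with a start codon at 47598017. Its 96 codons are in frame with the long form from codon 197 to the end, which is 32.9% of the full coding sequence.

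**Figure D1:**
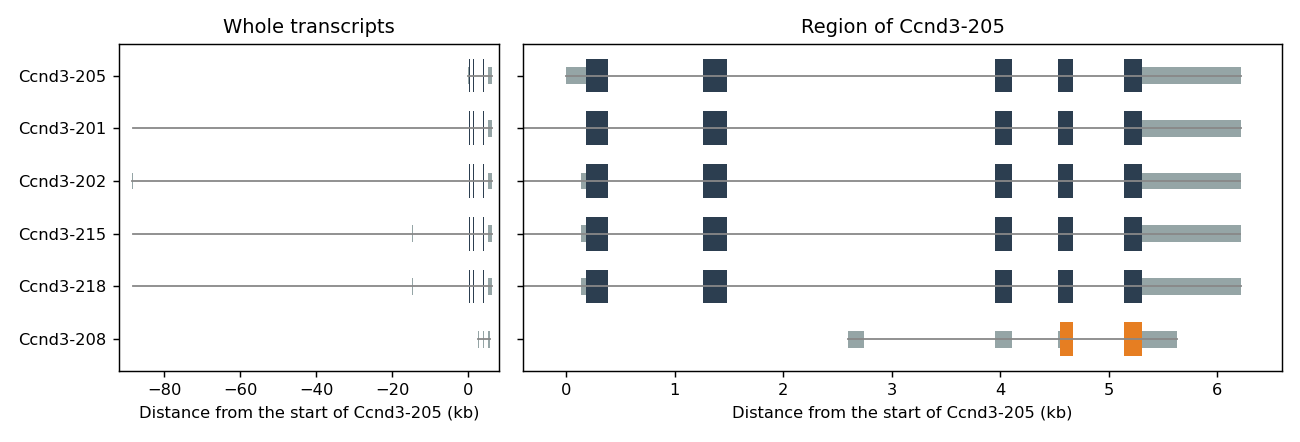
Exons of the 6 *Ccnd3* transcripts in the table, as distance in kb from the first base of *Ccnd3*-205, for the whole transcripts (left) and for the region of *Ccnd3*-205 (right). Thick boxes are coding (dark blue, or orange for *Ccnd3*-208), thin grey boxes are untranslated and lines are introns. The coding part of *Ccnd3*-208 lies in the last 2 coding exons that the 5 longer forms share.

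The start codons are shown because that of *Ccnd3*-208 differs from that of the full-length forms. Each line gives 12 bases before the start codon, the start codon in capitals and 6 bases after it, 5′ to 3′, from the GENCODE M21 transcript sequences.
*Ccnd3*-205: agccatcgcaggATGgagctg
*Ccnd3*-201: tgatggcagtggATGgagctg
*Ccnd3*-208: tacacctttgcgATGtatcct
*Ccnd3*-202, *Ccnd3*-215 and *Ccnd3*-218 have the same 21 bases as *Ccnd3*-205. *Ccnd3*-201 has the same start codon, but the exon that holds it begins at 47593654, so that most of the bases before it come from the exon upstream.

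The region over which reads were counted is not stated, and the counts themselves followed the coding exons more than the whole transcript. *Ccnd3*-201, *Ccnd3*-202, *Ccnd3*-215 and *Ccnd3*-218 had identical counts in every library although their upstream exons differ. *Ccnd3*-205 differed from them in 17 of 34 libraries, by at most 7 reads. Over the whole table, 69.0% of 4030 pairs of transcripts of a gene with the same coding exons had identical counts in every library, against 4.85% of 21353 pairs with other coding exons. The counts of the 5 full-length forms are therefore treated as 1 measure of the full coding sequence, and those of *Ccnd3*-208 as a measure of its last 96 codons. This reading was inferred from the counts. A count for *Ccnd3*-208 does not show that this short mRNA was present.

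By CPM, the order of the full-length level in RNA-seq was RPL3L OE, Control, RPL3 OE, WT heart and KO heart. *Ccnd3*-205 was at 87.9, 93.3 and 90.3 CPM in RPL3L OE cells, at 79.7, 79.8 and 85.2 CPM in Control cells and at 68.3, 69.4 and 69.7 CPM in RPL3 OE cells. The 3 groups of cells did not overlap, which is not read as a result since the share of such transcripts was not counted. In WT heart it was at 49.0, 41.7, 43.8 and 56.9 CPM and in KO heart at 39.2, 37.6, 55.3 and 45.7 CPM. The 2 genotypes overlapped in RNA-seq. The place of the heart below the cells rests on scaling by library totals, since with TMM, a scaling to the typical transcript, the log2 fold change of WT heart relative to Control cells was 0.0042 and that of RPL3 OE relative to Control cells -0.23.

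By CPM, the order in Ribo-seq was Control, RPL3L OE, RPL3 OE, KO heart and WT heart. *Ccnd3*-205 was at 112.3, 117.1 and 111.1 CPM in Control cells, at 108.7, 110.3 and 109.0 CPM in RPL3L OE cells and at 76.8, 87.4 and 87.9 CPM in RPL3 OE cells. The means of the top 2 groups, 113.5 ± 3.15 and 109.3 ± 0.86 CPM (SD, n = 3 each), differed by an amount that did not pass the test given with the C2C12 cells. In WT heart it was at 47.9, 43.7, 43.8 and 49.6 CPM, and in KO heart at 73.7, 59.8, 62.9 and 74.4 CPM. Each KO library was above each WT library. The order of KO heart and RPL3 OE cells, at up to 74.4 and from 76.8 CPM, is given on this scale only.

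**Figure D2:**
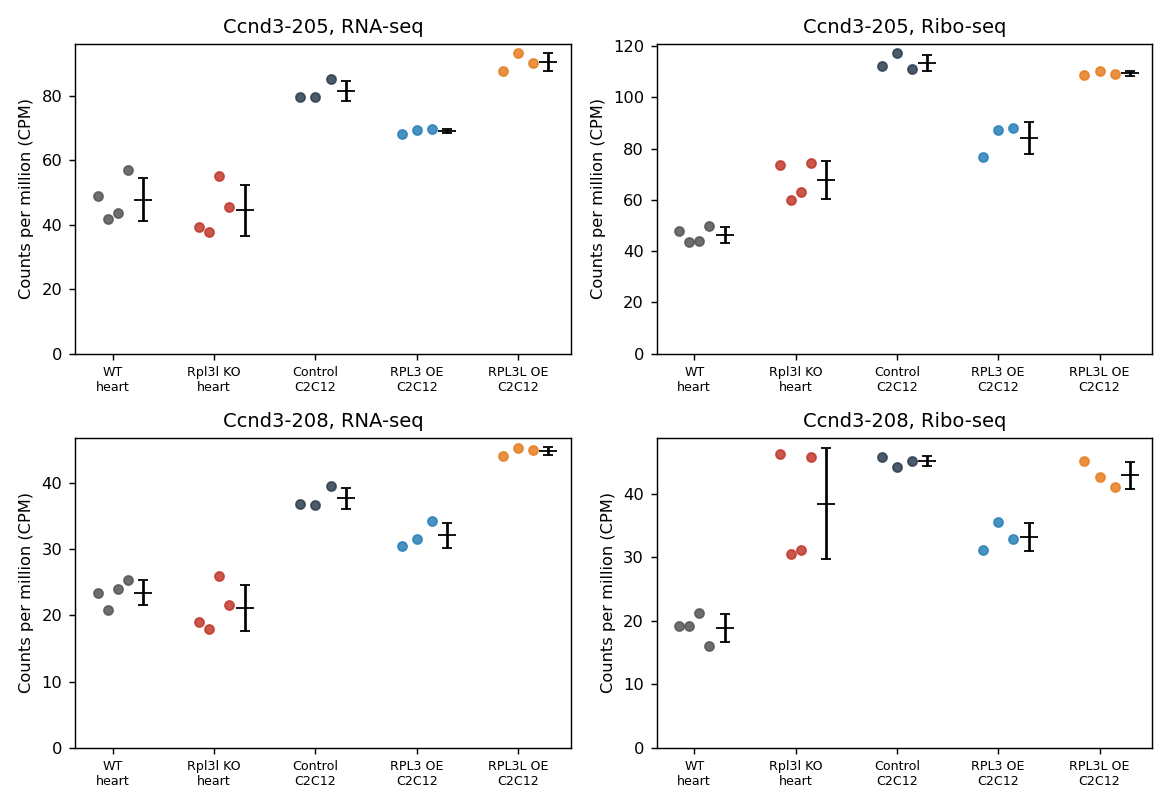
CPM of *Ccnd3*-205 (top) and *Ccnd3*-208 (bottom) in each RNA-seq (left) and Ribo-seq (right) library, with each axis starting at 0. Points are libraries, and the black marks beside them are the mean and SD (n = 4 for heart, n = 3 for C2C12 cells). In heart Ribo-seq the KO points of *Ccnd3*-208 lie between 30.6 and 46.2 CPM and the WT points between 16.01 and 21.3 CPM.

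The heart contrast asks how loss of RPL3L changes translation of single mRNAs. For the full coding sequence, the log2 fold change of KO relative to WT heart was -0.11 (SE 0.15) in RNA-seq, 0.59 (SE 0.11) in Ribo-seq and 0.70 (SE 0.19) in TE. The ratio of Ribo-seq CPM to RNA-seq CPM was 0.97 in WT and 1.53 in KO heart. Over the whole table, 0 of the 12483 transcripts fitted in TE passed the threshold on the adjusted p-value by edgeR in this contrast. The study likewise reports that TE changed significantly for none of its transcripts when RPL3L was lost. All 6 transcripts had non-overlapping genotypes in heart Ribo-seq with KO above WT, as had 3.43% of the 12695 transcripts tested, and nothing is read from this since the contrast chose the gene. In these whole-heart libraries a change in the mix of cells and a change per cell cannot be told apart.

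*Ccnd3*-208, the counts over the last 96 codons, differed more. In heart Ribo-seq it was at 19.1, 19.2, 21.3 and 16.01 CPM in WT and at 46.2, 30.6, 31.1 and 45.8 CPM in KO mice. In heart RNA-seq it was at 23.4, 20.8, 24.0 and 25.4 CPM in WT and at 19.0, 18.01, 25.9 and 21.6 CPM in KO mice. The genotypes were apart in Ribo-seq and overlapped in RNA-seq. Its log2 fold change was -0.14 (SE 0.14) in RNA-seq, 1.05 (SE 0.17) in Ribo-seq and 1.20 (SE 0.22) in TE. The ratio of Ribo-seq CPM to RNA-seq CPM was 0.81 in WT and 1.80 in KO heart. *Ccnd3*-208 was among the 12483 transcripts fitted in TE, of which 0 passed.

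If a read in the last 96 codons counts for both forms, the reads of the first 196 codons are those of *Ccnd3*-205 less those of *Ccnd3*-208. In heart Ribo-seq this first part was at 22.5 to 33.6 CPM in WT (mean 27.4 ± 4.93, SD, n = 4) and at 27.5 to 31.7 CPM in KO mice (29.3 ± 1.79, n = 4). The genotypes overlapped, and the log2 difference of KO relative to WT was 0.11 (SE 0.14). The last part was at 18.9 ± 2.16 CPM in WT and 38.4 ± 8.77 CPM in KO mice, a log2 difference of 1.00 (SE 0.19). On this reading, most of the difference between the genotypes in the full-length Ribo-seq count came from reads over the last 96 codons. In heart RNA-seq, the log2 difference was -0.062 (SE 0.20) for the first and -0.16 (SE 0.13) for the last part.

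The counts behind these values are small, with 48 to 92 reads per heart Ribo-seq library over the first part and 30 to 89 over the last. The boundary between the parts is that of the annotation, and reads that span it may be assigned to either. Leaving out each heart in turn kept the log2 fold change of *Ccnd3*-208 in Ribo-seq between 0.94 and 1.17.

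**Figure D3:**
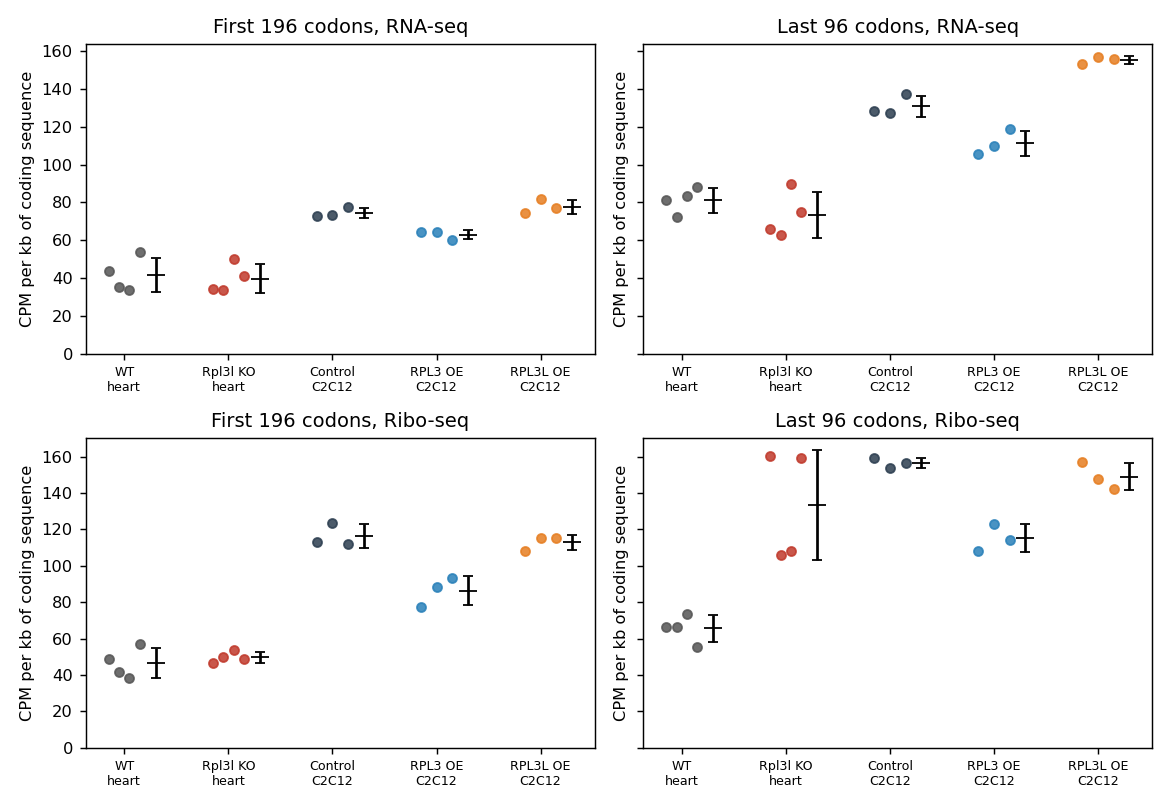
Reads over the first 196 (left) and last 96 codons (right) of *Ccnd3*, as CPM per kb of coding sequence in RNA-seq (top) and Ribo-seq (bottom), on a shared axis per row that starts at 0. Points are libraries, and black marks are the mean and SD (n = 4 for heart, n = 3 for C2C12 cells). In heart Ribo-seq the genotypes overlap over the first part and stand apart over the last part, at 55.6 to 73.8 in WT and 106 to 160 in KO mice.

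Per kb of coding sequence, the last part had more reads than the first in 33 of 34 libraries. The ratio of the last to the first part in Ribo-seq was 0.97 to 1.93 in WT heart (mean 1.46) and 2.00 to 3.43 in KO heart (mean 2.71). In Ribo-seq of C2C12 cells its mean was 1.35 in Control, 1.34 in RPL3 OE and 1.32 in RPL3L OE cells. In RNA-seq the mean was 2.01 in WT and 1.86 in KO heart, and 1.76, 1.77 and 2.00 in Control, RPL3 OE and RPL3L OE cells. Of the 5 groups, KO heart was the only one with a higher mean ratio in Ribo-seq than in RNA-seq, which is a description of the contrast that chose the gene.

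Expressed as a share, the reads of *Ccnd3*-208 made up 32.3% to 48.5% of those of *Ccnd3*-205 in Ribo-seq of WT heart (41.1% ± 6.91, SD, n = 4) and 49.5% to 62.7% in KO heart (56.2% ± 6.88, n = 4). In heart RNA-seq the shares were 44.6% to 54.9% in WT and 46.9% to 48.5% in KO mice. Among 1257 pairs of a shorter and a longer transcript of a gene, 34 had a share in heart Ribo-seq that was higher in KO without overlap, which is 2.70%. The difference of the means was 15.1 percentage points for *Ccnd3*, and its median over these pairs was -0.72. The contrast is the one that chose the gene, and no test was made.

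The sequence of the last part is shown because the Ribo-seq counts of the genotypes stood apart over it. It is the coding sequence of *Ccnd3*-208 without the stop codon, 288 bases, 5′ to 3′ on the plus strand, with codons for proline and alanine in capitals.
*Ccnd3*-208: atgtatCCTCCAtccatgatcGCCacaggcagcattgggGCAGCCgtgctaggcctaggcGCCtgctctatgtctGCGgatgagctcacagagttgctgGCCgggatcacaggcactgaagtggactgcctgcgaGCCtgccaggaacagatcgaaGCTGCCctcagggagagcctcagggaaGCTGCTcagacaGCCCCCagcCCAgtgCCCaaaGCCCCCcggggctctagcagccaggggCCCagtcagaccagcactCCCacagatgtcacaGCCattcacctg
Proline and alanine codons were counted because the study asks about elongation at single codons. They made up 22 of these 96 codons, 8 for proline and 14 for alanine, or 22.9%. In the first 196 codons they made up 28, or 14.3%. Over 8931 genes with at least 192 codons, the median share in the last 96 codons was 11.5% and that in the whole coding sequence 12.2%, and 94.5% of the genes had a lower share in their last 96 codons than *Ccnd3*. This composition is a description of the sequence, and its part in the Ribo-seq counts was not tested.

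Markers of other cell types were summed beside the heart Ribo-seq values, since cyclin D3 is abundant in leukocytes. The 5 leukocyte markers in the table, of 16 listed, summed to 193 to 288 CPM in WT and 200 to 242 CPM in KO mice. The genotypes overlapped likewise in the 4 markers of red blood cells in the table, of 6 listed, at 2301 to 3921 CPM in WT and 3020 to 5357 CPM in KO mice. The 5 fat markers in the table, of 7 listed, summed to 201 to 650 CPM in WT and 81.5 to 1454 CPM in KO mice. The 7 fibroblast markers in the table, of 8 listed, summed to 3178 to 3394 CPM in WT and 2531 to 4015 CPM in KO mice, and the 4 endothelial markers, of 8 listed, to 482 to 532 and 398 to 525 CPM. The WT range of each of these 5 lists overlapped the KO range.

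The 3 airway markers in the table, of 8 listed, summed to 2.19, 822, 15.3 and 234 CPM in the WT mice and to 1717, 2308, 0 and 1.79 CPM in the KO mice. In the same order, *Ccnd3*-208 in Ribo-seq was at 19.1, 19.2, 21.3 and 16.01 CPM in the WT mice. In the KO mice it was at 46.2, 30.6, 31.1 and 45.8 CPM. The part of these tissues in the Ribo-seq values of *Ccnd3* was not tested.

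Disome-seq, which sequences fragments protected by 2 adjacent ribosomes, was too shallow for *Ccnd3*. *Ccnd3*-205 had 7, 0, 2 and 0 reads in WT and 1, 0, 0 and 2 reads in KO mice, with library totals of 39016 to 175747 counts. None of the 6 transcripts reached a mean count of 10, which 1365 transcripts did, so that a difference was not detectable at this depth. In the 4 libraries with 0 reads, the limit of 3 counts allowed a level of up to 31.2 to 73.6 CPM. Of 3181 m6A peaks listed in the heart, 0 were assigned to *Ccnd3*.

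The C2C12 contrasts ask whether added RPL3L or RPL3 moved *Ccnd3* in a cell with little *Rpl3l* mRNA of its own. *Ccnd3* was lower in RPL3 OE than in Control cells in both assays. In RNA-seq the log2 fold change of *Ccnd3*-205 was -0.23 (SE 0.052, 95% interval -0.34 to -0.13, adjusted p = 0.00048 by the quasi-likelihood test of edgeR, adjusted over all transcripts after Benjamini and Hochberg). All 6 transcripts passed the threshold of an adjusted p of 0.05, against 16.1% of the 14432 transcripts tested. The 6 share reads, so they are not separate results, here or in the contrasts below. In Ribo-seq it was -0.46 (SE 0.064, 95% interval -0.59 to -0.33, adjusted p = 2.2e-06 by edgeR), and again all 6 passed, against 10.6% of 13802.

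*Ccnd3*-208 was lower in RPL3 OE cells too. Its Ribo-seq level was 31.1, 35.5 and 32.9 CPM in RPL3 OE and 45.9, 44.3 and 45.2 CPM in Control cells. The log2 fold change was -0.47 (SE 0.092, adjusted p = 0.00049 by edgeR). In RNA-seq it was at 30.5, 31.6 and 34.2 CPM in RPL3 OE and at 36.9, 36.6 and 39.6 CPM in Control cells, with a log2 fold change of -0.22 (SE 0.071, adjusted p = 0.021 by edgeR). This last call was lost with DESeq2 (adjusted p = 0.059), without Control replicate 3 (0.14 by edgeR) and without RPL3 OE replicate 1 (0.099) or 2 (0.078).

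Marker levels of the C2C12 groups are given beside these values. The myoblast markers summed in RNA-seq to 607 to 649 CPM in Control, 433 to 473 CPM in RPL3 OE and 735 to 751 CPM in RPL3L OE cells. These ranges did not overlap, and nothing is read from this, since the share of transcripts that do the same was not counted. *Myod1* was at 68.7 to 84.6 CPM in Control, 42.8 to 48.8 CPM in RPL3 OE and 76.5 to 84.1 CPM in RPL3L OE cells. Its Control and RPL3L OE ranges overlapped. The 7 fibroblast markers summed to 1744 to 1822 CPM in Control, 2616 to 2654 CPM in RPL3 OE and 1928 to 1964 CPM in RPL3L OE cells. Their part in the *Ccnd3* values was not tested.

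TE of *Ccnd3* did not pass the test in RPL3 OE cells. The log2 fold change in TE was -0.23 (SE 0.083, 95% interval -0.39 to -0.063, adjusted p = 0.42 by edgeR) for *Ccnd3*-205 and -0.24 (SE 0.12, adjusted p = 0.60) for *Ccnd3*-208. Of the 6 transcripts 0 passed by edgeR and 0 by DESeq2, against 0.0520% of 13457 transcripts called by edgeR. All 6 had an unadjusted p under 0.05, as had 1054 of the 13457.

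In RPL3L OE cells, 1 of the 6 transcripts passed in RNA-seq. *Ccnd3*-205 had a log2 fold change in RNA-seq of 0.14 relative to Control cells (SE 0.050, 95% interval 0.039 to 0.24, adjusted p = 0.068 by edgeR), which missed the threshold. *Ccnd3*-208 was at 44.1, 45.3 and 45.0 CPM, above each Control library, with a log2 fold change of 0.24 (SE 0.068, adjusted p = 0.016 by edgeR). This was the 1 of 6 called, against 9.26% of the transcripts tested. The call was lost without Control replicate 1 (adjusted p = 0.056), without RPL3L OE replicate 2 (0.068) and without RPL3L OE replicate 3 (0.056).

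In Ribo-seq of RPL3L OE cells no *Ccnd3* transcript passed relative to Control cells. The log2 fold change was -0.088 for *Ccnd3*-205 (95% interval -0.21 to 0.033, adjusted p = 0.39 by edgeR) and -0.11 for *Ccnd3*-208 (95% interval -0.28 to 0.060, adjusted p = 0.45). Of the 6 transcripts 0 passed by edgeR and 0 by DESeq2, against 11.1% of all transcripts called by edgeR. At an unadjusted p under 0.05 it was 0 of 6, against 3417 of 13802 transcripts. In TE the log2 fold change was -0.23 (SE 0.078, adjusted p = 0.10 by edgeR) for *Ccnd3*-205 and -0.35 (SE 0.11, adjusted p = 0.073) for *Ccnd3*-208. None of the 6 passed by edgeR or DESeq2, against 2.08% of all transcripts called by edgeR. All 6 had an unadjusted p under 0.05, as had 2053 of 13457 transcripts.

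Between the 2 overexpressing groups, *Ccnd3* was higher in RPL3L OE than in RPL3 OE cells in both assays. The log2 fold change of *Ccnd3*-205 was 0.37 in RNA-seq (SE 0.055, adjusted p = 1.6e-07 by edgeR) and 0.38 in Ribo-seq (SE 0.060, adjusted p = 1.4e-05 by edgeR). That of *Ccnd3*-208 was 0.46 (SE 0.076) and 0.36 (SE 0.085). All 6 transcripts passed in each assay, where 27.0% and 18.9% of all transcripts did. TE had a log2 fold change of -0.0005 for *Ccnd3*-205 (95% interval -0.16 to 0.16) and -0.11 for *Ccnd3*-208 (95% interval -0.33 to 0.12). In TE 0 of 6 passed by edgeR or by DESeq2, against 0.305% of all transcripts called by edgeR. At an unadjusted p under 0.05 it was 0 of 6, against 1214 of 13457 transcripts. The 3 contrasts of C2C12 cells share their groups and are not independent of each other.

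**Figure D4:**
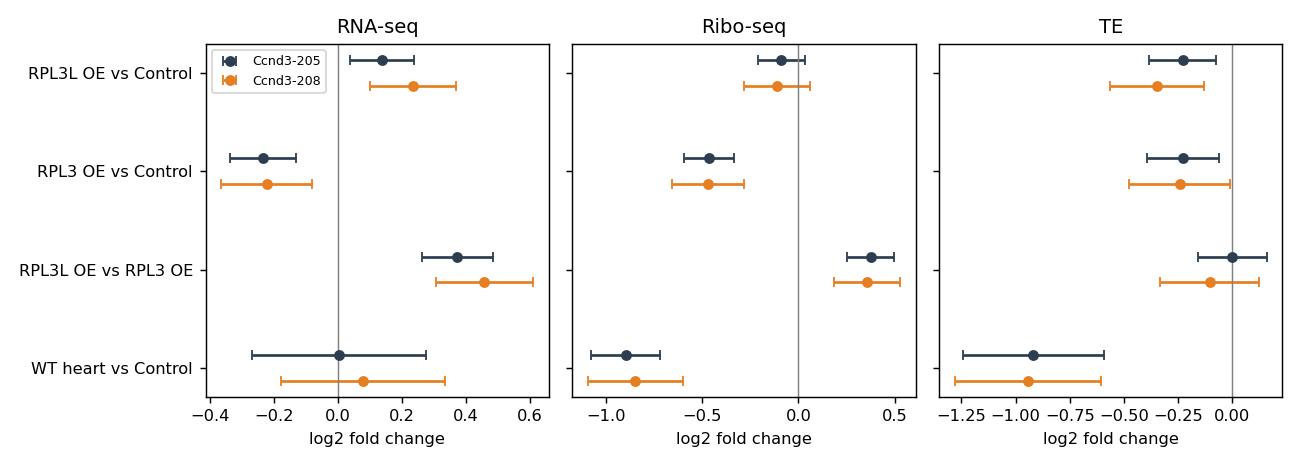
Log2 fold changes of *Ccnd3*-205 (dark blue) and *Ccnd3*-208 (orange) in RNA-seq, Ribo-seq and TE for the 3 contrasts of C2C12 cells and for WT heart relative to Control cells, with 95% intervals from edgeR as bars. In C2C12 cells RPL3 OE lies below Control in RNA-seq and Ribo-seq for both forms. WT heart lies below Control C2C12 cells in Ribo-seq and TE, with values between -0.85 and -0.94, a description since WT heart entered the choice of the gene.

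The share of the last part was compared among the C2C12 groups. With 3 libraries in each, no difference in this share could pass the threshold, so the test cannot decide. In RNA-seq its mean was 46.2% in Control, 46.4% in RPL3 OE and 49.5% in RPL3L OE cells. RPL3L OE and Control cells did not overlap (difference 3.29 percentage points, two-sided exact permutation test, p = 0.1, which is the smallest p that 3 against 3 allows, and 0.8 after adjustment over 8 comparisons, 2 of them with heart). In Ribo-seq it was 39.8%, 39.5% and 39.3%, with exact p-values of at least 0.5. In WT heart it was 49.3% in RNA-seq and 41.1% in Ribo-seq.

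WT heart and Control C2C12 cells were set side by side to place *Ccnd3* in tissue and in proliferating myoblasts. No test is given for *Ccnd3*, because WT heart libraries entered its choice. The log2 fold change of WT heart relative to Control cells in Ribo-seq was -0.90 (SE 0.084) for *Ccnd3*-205 and -0.85 (SE 0.12) for *Ccnd3*-208. In TE it was -0.92 (SE 0.16) and -0.94 (SE 0.16). The ratio of Ribo-seq CPM to RNA-seq CPM of *Ccnd3*-205 was 0.97 in WT heart, 1.39 in Control cells and 1.53 in KO heart. The order of KO heart and Control cells is given on the CPM scale only. KO heart was not fitted against Control cells.

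In RNA-seq the log2 fold change was 0.0042 for *Ccnd3*-205 (SE 0.13, 95% interval -0.27 to 0.28) and 0.079 for *Ccnd3*-208 (95% interval -0.18 to 0.34). These values depend on the scaling. With library totals in place of TMM, the median over all transcripts moved by -0.75 in RNA-seq, by -0.40 in Ribo-seq and by 0.37 in TE. *Ccnd3*-205 was then at -0.76 in RNA-seq, -1.30 in Ribo-seq and -0.54 in TE. On either scale its log2 fold change in RNA-seq lay near the median over all transcripts and that in Ribo-seq below the median. The change of scale moves all transcripts by about the same amount, so it could not have altered this. Heart and C2C12 libraries were prepared from different material, and tissue and preparation cannot be told apart.

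Of 49 other genes listed for the D cyclin pathway, 23 had transcripts in the table, and *Ccnd1* and *Ccnd2* are not analysed here. *Cdk4*, a kinase partner of cyclin D3, was at 761 ± 15.5 CPM per kb of coding sequence in RNA-seq of Control cells (SD, n = 3) and at 62.4 ± 2.54 in WT heart (n = 4). *Ccnd3*-205 was at 93.1 ± 3.62 and 54.6 ± 7.74 on the same scale. *Cdk6*, the other partner, was at 17.0 ± 1.19 in Control cells and 0.98 ± 0.47 in WT heart. In Ribo-seq, *Cdk4* was at 498 ± 12.3 in Control cells and 33.0 ± 1.25 in WT heart, and *Ccnd3*-205 at 130 ± 3.59 and 52.8 ± 3.41. The mRNA of the cyclin was thus below that of *Cdk4* in the cells and nearer to it in the heart.

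Of the 23 pathway genes, 16 were lower and 4 higher in RNA-seq of WT heart than of Control cells, where 80.7% of all transcripts were called, with a median log2 fold change of -2.31 against -0.083 for all transcripts. *Cdk4* had a log2 fold change of -2.84 (SE 0.098, adjusted p = 7.9e-12 by edgeR) and *Cdk6* of -3.49 (SE 0.29). *Cdkn1a*, the kinase inhibitor p21, was at -1.70 (SE 0.20). *Cdkn1b*, the inhibitor p27, was at 0.082 (adjusted p = 0.67) and *Rbl2*, the pocket protein p130, at 0.19 (adjusted p = 0.23). In Ribo-seq 15 were lower and 7 higher, against 83.2% of all transcripts called, and in TE 5 were lower and 6 higher, against 47.9%. The median in Ribo-seq was -2.38, and *Rbl2* was higher at 0.88 (SE 0.11, adjusted p = 7.7e-07 by edgeR), as was *Cdkn1b* at 0.53 (SE 0.11). With library totals these values move by about the shifts given for all transcripts, which puts *Cdkn1b* and *Rbl2* below 0 in RNA-seq and leaves both above 0 in Ribo-seq.

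In RPL3 OE cells relative to Control, 2 of the 23 genes were lower and 3 higher in RNA-seq, or 21.7% against 16.1% of all transcripts, with a median of -0.025. The lower ones were *E2f2*, an activating E2F factor, at -0.50 (SE 0.099, adjusted p = 1e-04 by edgeR) and *Cdkn1a* at -0.26 (SE 0.065, adjusted p = 0.0028). The ribonucleotide reductase subunits *Rrm1* and *Rrm2*, both E2F targets, were higher at 0.15 and 0.12. In Ribo-seq, *Cdkn1a* was lower at -0.33 (SE 0.056) and *E2f2* at -0.47 (SE 0.14), and 3 were lower and 1 higher in all, or 17.4% against 10.6% of all transcripts. *Cdk4*, at -0.021 in RNA-seq and -0.057 in Ribo-seq, and *Cdk6*, at -0.023 and 0.14, did not pass.

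In RPL3L OE cells relative to Control, 4 of the 23 genes were lower and 0 higher in RNA-seq, or 17.4% against 9.26% of all transcripts, with a median of -0.037. They were *Cryab*, a small heat shock chaperone, at -0.25 (SE 0.044, adjusted p = 2e-05 by edgeR), *Tfdp1*, the DNA-binding partner of E2F factors, at -0.16 (SE 0.034), *Rbl2* at -0.21 (SE 0.063) and *Mcm5*, a subunit of the replicative helicase, at -0.15 (SE 0.040). In Ribo-seq *Cryab* was at -0.51 (SE 0.049), *Mcm5* at -0.18 (SE 0.049) and *Cdkn1a* at -0.17 (SE 0.054), and these were the 3 of 23 called, where 11.1% of all transcripts were called. *Cryab* was also the 1 pathway gene called in TE, at -0.26 (SE 0.066, adjusted p = 0.019 by edgeR), where 2.08% of all transcripts were called.

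**Figure D5:**
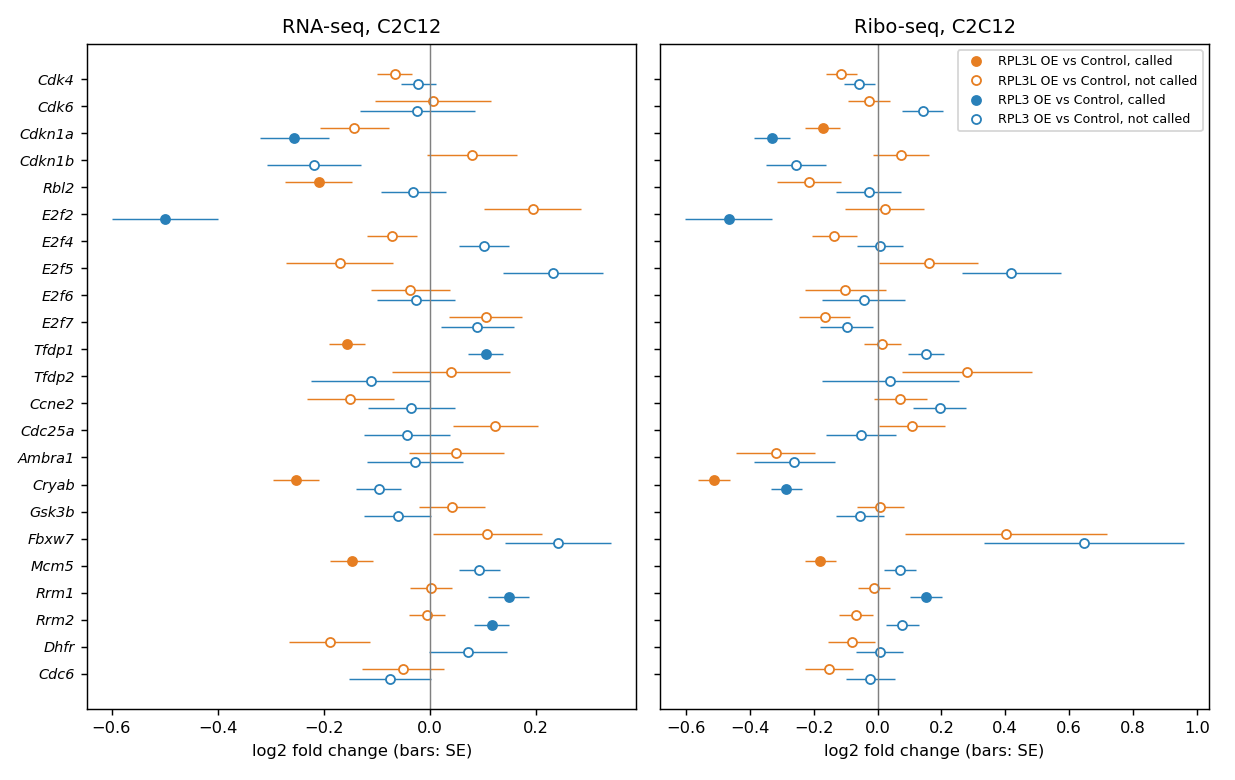
Log2 fold changes of the 23 pathway genes in RNA-seq (left) and Ribo-seq (right) of RPL3L OE (orange) and RPL3 OE cells (blue) relative to Control cells, with SE as bars. Filled points passed an adjusted p of 0.05 by edgeR and open points did not. Among the filled points, *E2f2* under RPL3 OE lies lowest in RNA-seq and *Cryab* under RPL3L OE lowest in Ribo-seq.

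Between RPL3L OE and RPL3 OE cells, 9 pathway genes were lower and 2 higher in RNA-seq, or 47.8% against 27.0% of all transcripts. *E2f2* was higher at 0.69 (SE 0.11, adjusted p = 3.6e-07 by edgeR), as was *Cdkn1b* at 0.30 (SE 0.096), while *Tfdp1* was lower at -0.26 (SE 0.035) and *Mcm5* at -0.24 (SE 0.042). In Ribo-seq 5 were lower and 3 higher, or 34.8% against 18.9% of all transcripts, the latter being *E2f2* at 0.49, *Cdkn1b* at 0.33 and *Cdkn1a* at 0.16. In KO relative to WT heart, the median of the pathway genes was 0.001 in RNA-seq (20 genes) and 0.0004 in Ribo-seq (17 genes), and *Cdk4* was at -0.0016 (SE 0.13) and 0.23 (SE 0.14).

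The genes whose levels varied most like *Ccnd3* were found by Pearson's correlation of log2 CPM over 17 libraries, after the mean of the 8 heart and of the 9 C2C12 libraries had been subtracted. These correlations describe libraries that share depth and group, and carry no test. The means were taken over both genotypes and over all C2C12 groups, so differences between groups are part of the measure. They include the contrast of KO with WT heart, which chose the gene. In RNA-seq with *Ccnd3*-205 they were *Cacnb3*, a calcium channel subunit (r = 0.86), *Uhrf1bp1l* (0.86), *Dusp10*, a phosphatase of stress-activated kinases (0.85), and *Serpinb8*, a serine protease inhibitor (0.84), among 6462 genes. In Ribo-seq with *Ccnd3*-208 they were *Gpc1*, a cell surface proteoglycan (0.93), *Tsc22d1* (0.92), *Cebpb*, a bZIP transcription factor (0.91), and *Bag3*, a co-chaperone of muscle (0.90), among 5983 genes.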

How the data were processed

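The authors deposited read counts per transcript without normalization. They had trimmed Ribo-seq and Disome-seq reads with cutadapt, filtered them by quality, removed rRNA reads with STAR, mapped the rest with STAR to transcripts of GRCm38.p6 and to the mm10 genome, keeping reads that map to several places, collapsed molecular identifiers with UMI-tools and counted with featureCounts. Their versions, the strand setting, the region counted and the processing of RNA-seq reads are not given in the sources used here. For m6A-seq the authors deposited a count and a TPM value per peak, of which only the gene names of the peaks were used.

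The table held 47754 lines for 23877 transcripts, each on 2 identical lines, of which 1 was used. GENCODE M21 matched 23662 by identifier, all on the plus strand, and minus-strand genes such as *Rpl3* are not analysed here. Because isoforms share reads, their counts are not independent.

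Counts were fitted across all transcripts by edgeR 4.0.16 in R 4.3.3 (quasi-likelihood, two-sided, Benjamini-Hochberg over all transcripts, threshold 0.05). TMM was applied per assay, and transcripts needed a mean of 10 counts or more in every assay of a model. For TE the group by assay interaction was tested. The C2C12 models held all 3 groups, and that of WT heart and Control cells only these groups. The tests planned for *Ccnd3* in the latter were run but are given without p-values, since WT heart entered the choice of the gene. SE and log2 values come from these fits, while the parts of the coding sequence were compared on log2 CPM. Each model was tested on simulated counts. Alternatives were DESeq2 1.42.0, other filters, library totals, a replicate block, 1 transcript per gene, only the groups compared and each library left out in turn. Depth limits the precision, and floors cover counting error only.

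The gene, its pathway and marker lists and the tests were chosen with earlier results of these data known. The rule for named genes took all *Ccnd3* transcripts, the kinases, inhibitors and pocket proteins of the pathway list, at most 3 other called members per contrast and assay by p-value, and the 4 genes most correlated with *Ccnd3*. Figures were drawn with matplotlib 3.10.9.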

Additional observations from a re-analysis of the deposited data

How the results depend on the processing

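Of 225 alternative values for *Ccnd3*-205, 213 were unchanged and the other 12 changed direction. Of 215 for *Ccnd3*-208, 206 were unchanged, 7 missed the threshold and 2 changed direction. Outside the contrast of KO with WT heart, unchanged means the same direction and the same side of the threshold. Within it, unchanged means a move of less than the pooled SD of log2 CPM, combined over both assays for TE. A change of direction was counted as such whether or not the threshold was crossed. The changes of direction concern values that were near 0 in the main fit. In RNA-seq of WT heart relative to Control cells, *Ccnd3*-205 was at -0.095 with no filter beyond a total of 10 counts, at -0.76 with library totals, at -0.029 with 1 transcript per gene and between -0.093 and 0.12 with each library left out. *Ccnd3*-208 was at -0.020 with no filter and at -0.68 with library totals. In TE of RPL3L OE relative to RPL3 OE cells, *Ccnd3*-205 lay between -0.060 and 0.036 with each library left out. Apart from the scaling, which library totals set by construction, the cause was not tested. The other left-out ranges of *Ccnd3*-205 in heart were 0.53 to 0.66 in Ribo-seq, 0.61 to 0.81 in TE and -0.20 to -0.0064 in RNA-seq. They describe the contrast of KO with WT heart, which chose the gene, and are no support for it.

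The replicate numbers did not pair the samples, since no pair of groups had a correlation over 0.1 in every pair of libraries (range -0.21 to 0.27), nor had RNA-seq with Ribo-seq in any group (range -0.47 to 0.41). With the replicate number as a block, *Ccnd3*-205 in RNA-seq of WT heart relative to Control was at -0.11. It stayed at -0.23 in RNA-seq and -0.47 in Ribo-seq of RPL3 OE cells, and in C2C12 cells the block changed no call of *Ccnd3*-205.

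Counts of called transcripts over the whole table moved by more than 1.5 times under some settings. With DESeq2 they were 861 in place of 1336 in RNA-seq and 675 in place of 1528 in Ribo-seq of RPL3L OE cells, 718 in place of 1464 in Ribo-seq of RPL3 OE cells, 1220 in place of 2603 between these groups, and 21 in place of 7 in TE of RPL3 OE cells. With 1 transcript per gene fewer were tested and called (589 in place of 1336, 1039 in place of 2321 and 1614 in place of 3899 in RNA-seq). Each library left out gave 66 to 291 TE calls in RPL3L OE cells in place of 280, and 3 to 74 in RPL3 OE cells in place of 7, the highest without RPL3 OE replicate 3. The Disome-seq alternatives could not be fitted for *Ccnd3*, since no transcript of it reached the filter.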
